A study of Mus musculus with 32 samples.

Results

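YUMM3.3 cells, a mouse melanoma line that carries mutant Braf, were treated with Activin-A at 40 ng/ml for 12 hrs and compared with untreated cells of the same time point. This dose is that of the study's methods, while its figure legends for the 12 hrs treatment give a higher one and name water as the control. The comparison used the 4 wells labelled as Activin-A alone and the 4 untreated wells, 8 of the 32 wells of the study. The other wells received IFN-γ at 20 ng/ml with or without Activin-A, or were collected at 4 hrs, and give further sets of Activin-A and control wells. The 8 wells with IFN-γ at 12 hrs were also in the fit of the main comparison. All wells held the same line in the same medium with 10% serum, and mRNA was counted by BRB-seq, a bulk method in which the 3′ end of each transcript is tagged with a well barcode before the wells are pooled. The wells are quadruplicates of 1 line in culture, and no source states that they came from separate cultures, so p-values measure the spread between wells.

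Activin-A is a dimer of 2 βA chains encoded by Inhba and belongs to the TGF-β family. It binds type II receptors (Acvr2a, Acvr2b), which recruit the type I receptor Acvr1b, and the complex phosphorylates Smad2 and Smad3. These enter the nucleus with Smad4 and act together with other factors on target genes, among them feedback inhibitors of the pathway and genes of the cytoskeleton and the extracellular matrix. The TEAD proteins, DNA-binding partners of YAP, share several of these targets.

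The 8 wells held between 803370 and 1285540 counts and between 11362 and 11653 detected genes. A count of 3 corresponded to between 2.33 and 3.73 CPM (the count of a gene scaled to library size), and values below that level are at the edge of detection. In this paragraph CPM is scaled to the library's total alone, and the levels of genes in all later paragraphs are also scaled by TMM factors (0.966 to 1.02 over the wells of 12 hrs). Mitochondrial transcripts took 1.22 to 1.33% of counts in untreated wells and 1.31 to 1.42% in Activin-A wells. In a principal component analysis of the 500 most variable genes the first component carried 28.6% of the variance and separated the groups, with untreated wells between -8.51 and -3.28 and Activin-A wells between 3.33 and 9.71. Melanocyte markers were present (Pmel, which builds melanosome fibrils, at 108 to 137 CPM in untreated wells). Of 15 such markers 10 lay above 3 counts in at least 4 wells, 7 were high enough to test and none of these was called, while Mitf, not tested, was low at 5.49 to 7.27 CPM in untreated and 3.2 to 9.43 CPM in Activin-A wells and Kit was not in the table. Their summed level was 374 to 428 CPM in untreated and 390 to 448 CPM in Activin-A wells. Leukocyte markers summed to 13.2 to 21 CPM in untreated and 7.85 to 17.8 CPM in Activin-A wells, the endothelial markers Pecam1, Cdh5, Kdr and Tek were not in the table, and of the epithelial markers Krt8 alone was in it, at no more than 1.82 CPM. Of 8 mesenchymal markers 5 lay above that level, 3 were tested and none of these was called. Their summed level was 273 to 314 CPM in untreated and 307 to 366 CPM in Activin-A wells, mostly from Col3a1.

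Activin-A changed 216 of the 8971 genes tested (edgeR quasi-likelihood test, Benjamini-Hochberg adjusted p under 0.05, hereafter DEGs), which is 2.41% of them. Of these 112 were higher (1.25%) and 104 lower (1.16%) with Activin-A. Genes with the highest log2FC included the matricellular gene Ccn2 and the pathway inhibitor Pmepa1, and the genes with the smallest p among the lower ones encoded a neurofilament chain, the alarmin IL-33 and a galectin. Changes were small for most DEGs: 26 differed by at least 2-fold, 20 of them higher and 6 lower, and 131 differed by less than 1.5-fold. The median log2 fold change (log2FC) was 0.55 for higher and -0.41 for lower DEGs. The 4 Activin-A wells lay wholly outside the range of the 4 untreated wells for 98 of the 112 higher and 87 of the 104 lower DEGs, against 3.57% of all tested genes in the upward and 3.31% in the downward direction. The DEGs were called on these same wells, so this separation follows in large part from the selection and is no separate support.

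**Figure D1:**
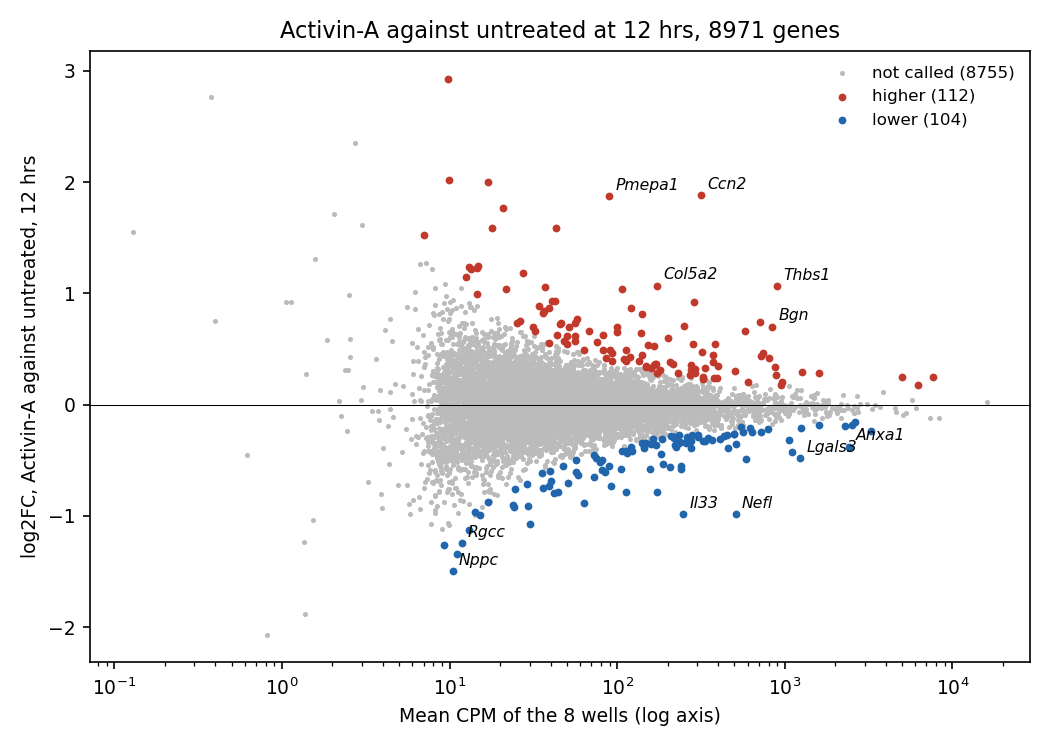
Each point is a gene tested, placed by its mean CPM over the 8 wells (log axis) and its log2FC for Activin-A against untreated at 12 hrs. DEGs are coloured (112 higher in red, 104 lower in blue), and DEGs of small log2FC appear only at high CPM.

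Genes with more counts were called more often and at smaller changes. Among genes with a mean of under 20 counts per well 0.989% were called and the smallest called log2FC was 0.88 in size. Among genes with 500 or more counts 12.8% were called, down to a log2FC of 0.16. These are the smallest values called in each class and not detection limits. In bulk RNA a change in the number of cells that express a gene cannot be told apart from a change in RNA per cell.

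The promoters of 4 higher genes of the contractile or the TEAD-linked list described below are shown as examples whose promoters held the letters GGAATG, the core of the TEAD binding motif. The higher contractile genes Flna and Tpm1 held them too and are not printed. Each sequence is the 250 bases upstream of the first RefSeq start listed for the gene in build GRCm38.p6, which is not the build of the counts (GRCm39). It is written 5′ to 3′ on the strand of the gene. Other annotated starts of a gene were not searched, here or for the shares given below. Capitals mark GGAATG or CAGAC, a Smad-type motif, or the reverse complement of either.
Acta2: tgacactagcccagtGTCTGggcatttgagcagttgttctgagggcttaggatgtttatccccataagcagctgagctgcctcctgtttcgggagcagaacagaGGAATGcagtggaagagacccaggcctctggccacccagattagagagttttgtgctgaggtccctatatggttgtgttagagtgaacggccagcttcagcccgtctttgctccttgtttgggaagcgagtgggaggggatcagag
Cald1: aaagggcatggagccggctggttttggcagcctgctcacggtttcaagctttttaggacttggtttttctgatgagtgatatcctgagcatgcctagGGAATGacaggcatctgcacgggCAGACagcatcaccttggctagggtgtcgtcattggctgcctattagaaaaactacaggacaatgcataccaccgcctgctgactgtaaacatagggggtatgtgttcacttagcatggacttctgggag
Ccn1: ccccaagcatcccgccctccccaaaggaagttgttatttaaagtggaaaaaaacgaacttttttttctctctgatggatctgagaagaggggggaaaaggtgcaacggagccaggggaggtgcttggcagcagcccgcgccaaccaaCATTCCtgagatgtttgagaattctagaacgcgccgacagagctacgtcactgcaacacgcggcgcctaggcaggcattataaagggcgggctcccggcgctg
Amotl2: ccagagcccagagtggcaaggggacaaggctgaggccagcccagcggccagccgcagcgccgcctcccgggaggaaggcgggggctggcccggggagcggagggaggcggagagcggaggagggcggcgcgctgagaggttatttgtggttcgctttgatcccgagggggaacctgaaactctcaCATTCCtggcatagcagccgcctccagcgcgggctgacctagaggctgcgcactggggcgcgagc

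These windows lie at chr19:34255374-34255623 on the minus strand for Acta2, chr6:34598254-34598503 on the plus strand for Cald1, chr3:145649986-145650235 on the minus strand for Ccn1 and chr9:102717554-102717803 on the plus strand for Amotl2. The GGAATG of Acta2 ran from 146 to 141 bases before the start and that of Cald1 from 153 to 148. On the opposite strand it ran from 103 to 98 bases before the start in Ccn1 and from 65 to 60 in Amotl2. With both strands searched, GGAATG was found in 13 of the 83 promoters matched to higher genes (15.7%), in 10 of the 80 matched to lower genes (12.5%) and in 9.84% of those of tested genes. CAGAC was found in 41% of promoters of higher genes, 27.5% of lower and 39.5% of tested genes. The palindrome GTCTAGAC was found in none of the promoters of higher or lower genes and in 0.181% of those of tested genes. The CArG box, the motif of serum response factor, was searched only in the strict form CCWWWWWWGG, where W is A or T. It was found in 1 of the 83 promoters of higher genes (1.2%) and in 1.14% of tested genes. Sequences 1 base off that form, such as ccctatatgg and ccttgtttgg in the printed Acta2 promoter, were not counted. These letters in a window do not show that a factor binds there.

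The gene lists used from here on were chosen with earlier results of these data known, and no list was tested as a set. Over all tested genes 1.25% were called higher and 1.16% lower, and 12.8% were called among genes of 500 or more counts. The receptors and Smads that carry the signal were mostly not called. Of 8 receptors tested, Bmpr2, a type II receptor of the BMP branch, was higher at 53.1 ± 4.54 CPM with Activin-A against 33.8 ± 3.9 CPM untreated (SD, n = 4 wells each), and Tgfbr3, the co-receptor betaglycan, was lower at 10.2 ± 3.37 against 20.1 ± 3.56 CPM. The call of Bmpr2 was lost without untreated well 4 (edgeR adjusted p = 0.0563) and with DESeq2 (adjusted p = 0.098), and that of Tgfbr3 in 6 of the 8 refits without 1 well. Tgfbr3 was not called with DESeq2 either (adjusted p = 0.234). Acvr1b, the main type I receptor of Activin-A, was at 29.4 ± 4.36 CPM with Activin-A and 30.9 ± 4.91 CPM untreated, and its wells overlapped. The log2FC was between -0.17 and 0.03 for Acvr1b, Acvr1, Tgfbr1, Tgfbr2, Bmpr1a and the co-receptor Eng, with no call. The type II receptors Acvr2a and Acvr2b gave at most 10 and 11 counts in any well and were too low to test, and Acvr1c was at 0 counts in all 8 wells. The list's median log2FC was -0.10, beside -0.0031 over all tested genes.

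None of 8 Smads and nuclear partners was called by edgeR, 1 had an unadjusted p under 0.05, and none was called in any of 18 alternative settings, DESeq2 included. That gene was Smad3, a direct substrate of the activated receptor, whose 4 Activin-A wells lay at 33 to 45.5 CPM and whose untreated wells lay at 51.8 to 57.5 CPM, without overlap. Its log2FC of -0.45 ± 0.15 (SE) did not pass the test (edgeR adjusted p = 0.11). Smad2 was at 43.5 ± 5.81 CPM with Activin-A and 45.8 ± 6.9 CPM untreated (SD, n = 4), and Smad4 at 102 ± 14.9 and 101.2 ± 7.83 CPM.

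The inhibitors of Smad signaling were higher where they were called. Pmepa1, a membrane protein that sequesters receptor-activated Smads, was at 182, 103, 107 and 168 CPM in Activin-A wells and at 30.3, 43.1, 47.4 and 34.1 CPM in untreated wells. All Activin-A wells were above all untreated wells, but wells 1 and 4 of the Activin-A group were well above wells 2 and 3. The log2FC was 1.87 ± 0.15 (SE; edgeR adjusted p = 3.76e-19), a 3.66-fold difference. Cd109, a co-receptor that lowers TGF-β signaling, and the corepressor Tgif1 were higher by 0.32 and 0.28 on the log2 scale, and the call of Tgif1 was lost in 5 of 8 refits without 1 well. In all 3 of 12 inhibitors tested were higher and none lower, with a list median of 0.30. Smad7, the inhibitory Smad, was at 34.8 to 41.4 CPM with Activin-A and 21 to 30.5 CPM untreated, wells that did not overlap, and its log2FC of 0.61 ± 0.19 fell short of the threshold (edgeR adjusted p = 0.0547). Skil, which encodes the corepressor SnoN, had a log2FC of 0.78 ± 0.26 and was not called either (edgeR adjusted p = 0.0988). Smad7 was called with all 32 wells in the fit, with a minimum of 10 counts in every sample and without untreated well 2, and Skil without untreated well 3 or Activin-A well 2.

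Of 16 ligands and extracellular regulators tested, 4 were higher and 1 was lower, with a list median of -0.02. Inhba, the gene of the ligand itself, was at 91.6, 91.3, 88.9 and 88.2 CPM in Activin-A wells and at 59.9, 53, 63.9 and 69.4 CPM in untreated wells. Its wells did not overlap, and its log2FC was 0.56 ± 0.13 (edgeR adjusted p = 0.00189). Fstl1, a secreted follistatin-like glycoprotein, was higher at 335 ± 24.7 against 231 ± 3.66 CPM (SD, n = 4). Ltbp4, which anchors latent TGF-β in the matrix, was called higher at 191 ± 18.8 against 156 ± 8.07 CPM, and this call was lost in 6 of 8 refits without 1 well. Fst, the secreted protein that binds and neutralises Activin-A, was lower at 467 to 593 CPM with Activin-A against 598 to 643 CPM untreated. The log2FC of Fst was -0.25 ± 0.06 (edgeR adjusted p = 0.00501), and it was not called without Activin-A well 4 (adjusted p = 0.06). Inhbb, the gene of the βB chain, was at 3.1 to 6.21 CPM with Activin-A and 5.51 to 8.56 CPM untreated and was not called.

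Of 6 Id genes and BMP-type targets tested, Hes1, a transcriptional repressor, was higher at 83.8 ± 12.8 against 52.1 ± 6.24 CPM and Id3, an inhibitor of helix-loop-helix factors, was lower at 210 ± 26.7 against 262 ± 26.7 CPM (SD, n = 4). The wells of Id3 overlapped, and its call was lost without untreated well 2 or Activin-A well 2 (edgeR adjusted p up to 0.0924). It was also lost with DESeq2 (adjusted p = 0.0576). Id1 and Id2 had log2FC of -0.21 and -0.22 and were not called.

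The TEAD-linked targets had 6 of 21 members higher (28.6%) and none lower, beside 1.25% and 1.16% of all tested genes, with a list median of 0.19. Ccn2, a matricellular protein of fibrotic tissue, was at 512, 459, 453 and 558 CPM with Activin-A and at 126, 151, 132 and 127 CPM untreated. This was the smallest p of the comparison, with a log2FC of 1.88 ± 0.08 (edgeR adjusted p = 5.13e-39) and no overlap of wells. Thbs1, which encodes the matrix glycoprotein thrombospondin-1, was at 1102 to 1366 CPM with Activin-A and between 540.0 and 607 CPM untreated, a 2.1-fold difference. Ccn1, a relative of Ccn2, was at 360 to 401 CPM with Activin-A and 172 to 234 CPM untreated, with a log2FC of 0.92 ± 0.08 (edgeR adjusted p = 3.03e-17). Gadd45a and Gadd45b, stress sensors that act on p38 and JNK kinases, were higher by 0.54 and 0.93 on the log2 scale, and Amotl2, a junction protein that holds YAP in the cytoplasm, by 0.50, a call lost with DESeq2 (adjusted p = 0.0518). Tead2, a TEAD factor that was not on this list and was chosen after its values were seen, was at 57.7 ± 8.16 CPM with Activin-A and 34.8 ± 9.2 CPM untreated (edgeR adjusted p = 0.00154).

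The contractile and actin-binding genes had 13 of 39 members higher (33.3%) and none lower, beside 1.25% and 1.16% of all tested genes, with a list median of 0.16. Actb, Tpm1, Flna and Cnn2 are in the class of 500 or more counts, where 12.8% of genes were called. The count was 10 to 12 in the 8 refits without 1 well, 10 with DESeq2 and 4 when a log2FC of at least 0.5 was also asked for. Acta2, smooth muscle actin, was at 719, 739, 687 and 675 CPM with Activin-A and at 445, 408, 441 and 494 CPM untreated. The groups did not overlap, and the log2FC was 0.66 ± 0.06 (edgeR adjusted p = 7.09e-16). Cald1, which encodes the actin-binding caldesmon, was at 272 to 342 CPM with Activin-A and 174 to 204 CPM untreated, with a log2FC of 0.71 ± 0.08. The actin crosslinker Flna was higher by 0.34, the calponin Cnn2 by 0.42, the tropomyosin Tpm1 by 0.29, and the LIM protein Pdlim5 by 0.66 on the log2 scale. Actb, cytoplasmic actin, was higher by a smaller step, at 5433 ± 465 against 4580 ± 242 CPM (SD, n = 4). The call of Myl12a, a regulatory light chain of myosin, was lost in 6 of 8 refits without 1 well (edgeR adjusted p up to 0.151). Msn, moesin, which links actin to the membrane, was not on the list and was at 861 ± 15.4 against 626 ± 44.7 CPM. Rflnb, a filamin-binding protein, had among the highest log2FC of the comparison, with 21.4 to 30.5 CPM in Activin-A wells and 4.7 to 8.81 CPM untreated (4.01-fold, edgeR adjusted p = 3.15e-07). Tnnt2, a sarcomere troponin, was chosen after its values were seen and was at 12.4 to 23.6 CPM with Activin-A and 0 to 4.49 CPM untreated, where 3 of 4 wells lay under the level of 3 counts.

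**Figure D2:**
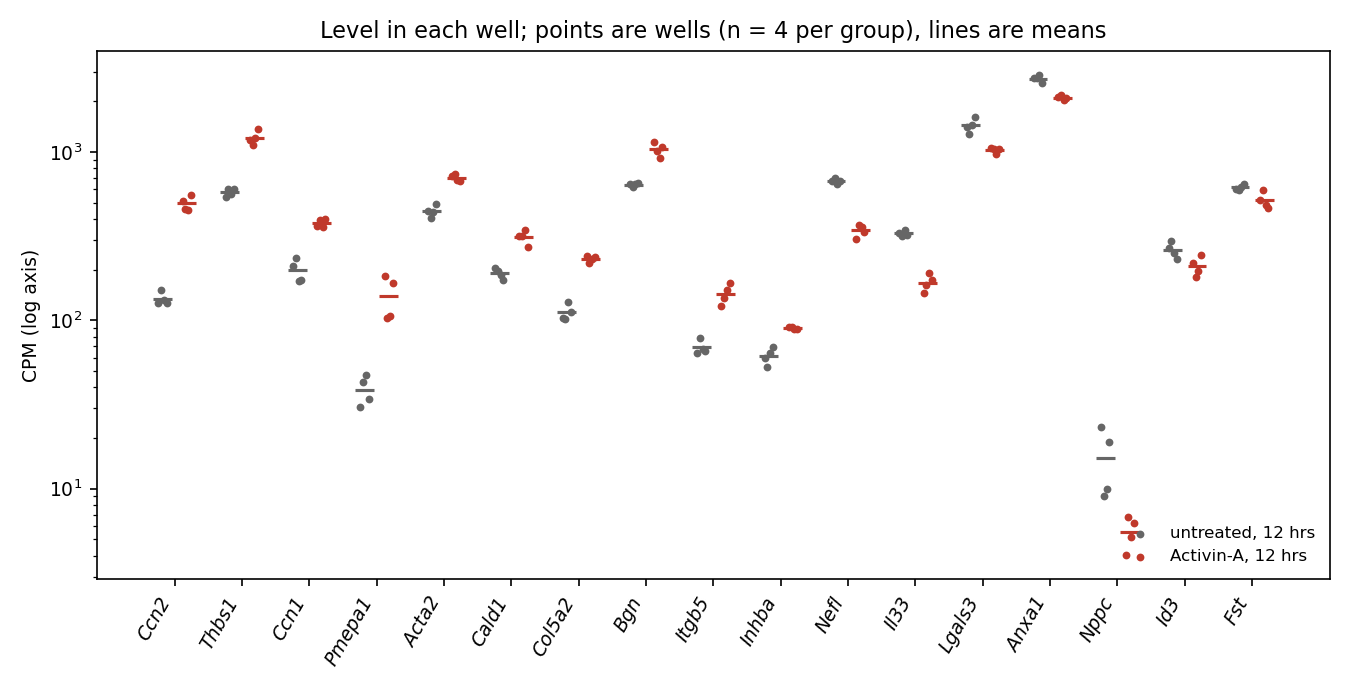
The level of 17 genes is plotted in CPM on a log axis, with a point for each well and a line at the mean of 4 wells (grey, untreated; red, Activin-A; 12 hrs). The wells of the groups are apart for Ccn2, Thbs1 and Pmepa1 and for Nefl and Il33 in the opposite direction, and they overlap for Id3.

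Among genes of the matrix more members were called higher than lower, beside 1.25% higher and 1.16% lower over all tested genes. Of 27 collagens and collagen-modifying enzymes 4 were higher and none lower, and of 37 proteoglycans, glycoproteins and matricellular proteins 8 were higher and 2 lower, with list medians of 0.13 and 0.06. The lists overlap, and 3 of these 8 (Ccn2, Thbs1 and Ccn1) are the genes already counted among the 6 higher TEAD-linked targets. The 4 collagen calls were 2 with DESeq2 and without untreated well 2 or 3 or Activin-A well 3 or 4, and 1 with the log2FC minimum, and the 10 calls of the other list were 8 to 12 in refits without 1 well and 6 with that minimum. Col5a2, a chain of the fibril-nucleating collagen V, was at 241, 219, 232 and 239 CPM with Activin-A and at 104, 102, 129 and 112 CPM untreated, with no overlap (log2FC 1.07 ± 0.10, edgeR adjusted p = 2.64e-16). Col18a1 was higher by 0.45. Col4a1 and the lysyl oxidase Loxl3 were called higher by 0.25 and 0.33, and these calls were lost in 4 and 6 of 8 refits without 1 well. Bgn, the small proteoglycan biglycan, was at 1151, 1020, 918 and 1074 CPM with Activin-A and at 645, 619.7, 642 and 656 CPM untreated, with a log2FC of 0.70 ± 0.06 (edgeR adjusted p = 4.87e-18). Dmp1, a mineral-binding phosphoprotein, Gpc1, a cell-surface heparan sulfate proteoglycan, and Fbln5, an elastic fibre protein, were higher by 0.65, 0.37 and 0.73. Spp1, which encodes osteopontin, was at 7463 to 9583 CPM with Activin-A against 6603 to 7533 CPM untreated, wells that overlapped, and was not called with DESeq2 (adjusted p = 0.0701). The lower members were Thbs2, a relative of Thbs1, at 661 ± 63.6 against 779 ± 24.5 CPM, and Tgfbi, a TGF-β-induced adhesion protein, at 131 ± 10.8 against 166 ± 13.5 CPM (SD, n = 4). The call of Thbs2 was lost without Activin-A well 1 (edgeR adjusted p = 0.0978) and that of Tgfbi in 4 of 8 refits without 1 well. Fn1, fibronectin, was at 1213 ± 94.8 against 1158 ± 138 CPM and was not called (edgeR adjusted p = 0.757).

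Integrins, the receptors for these proteins, had 3 of 9 members higher and 1 lower, beside 1.25% and 1.16% of all tested genes. Itgb5 was at 122, 136, 152 and 166 CPM with Activin-A and at 63.8, 79, 67.2 and 65.8 CPM untreated, with no overlap (log2FC 1.04 ± 0.12, edgeR adjusted p = 1.29e-11). Itgb1 and Itgav, which pair with each other or with other chains, were higher by 0.44 and 0.53. Itgb7, a leukocyte integrin chain, was lower at 84.7 ± 11.3 against 125 ± 14.7 CPM (SD, n = 4). Of 24 matrix proteases and inhibitors 3 were higher and none lower. Timp1, an inhibitor of matrix metalloproteinases, was at 1752 ± 113 against 1440 ± 82.7 CPM, and Serpinf1, an antiangiogenic serpin, was higher by 0.35, a call lost with DESeq2 (adjusted p = 0.0575).

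Among chemokines, cytokines and growth factors 3 of 30 were higher and 4 lower, with a list median of -0.08. These 7 calls were 3 with DESeq2, 2 with its independent filtering set to 0.05 and 4 without Activin-A well 1. Il33, an alarmin released by damaged cells, was at 145, 161, 190 and 173 CPM with Activin-A and at 328, 319, 345 and 323 CPM untreated. The wells did not overlap, and Il33 fell by 0.98 on the log2 scale (SE 0.0812, edgeR adjusted p = 4.87e-18). Areg, which encodes the EGF receptor ligand amphiregulin, was at 156 ± 9.22 against 210 ± 20.5 CPM (SD, n = 4). Ccl2, which attracts monocytes, was at 32.3 to 64.1 CPM with Activin-A against 65.6 to 80.2 CPM untreated, and its call was lost in 3 of 8 refits without 1 well and with DESeq2. Nppc, a natriuretic peptide gene, was at 4.02 to 6.8 CPM with Activin-A and at 8.98 to 23.3 CPM untreated, and its call was lost without untreated well 1 or Activin-A well 1 (edgeR adjusted p up to 0.171). With DESeq2 it was not called (adjusted p = 0.0694). The higher members were Pdgfb and Pdgfa, ligands of PDGF receptors, and Cxcl12, a chemokine of stromal cells. Pdgfb was at 31.3, 12.6, 25.9 and 37.3 CPM with Activin-A and at 3.11, 12.6, 7.71 and 12.9 CPM untreated, with the second Activin-A well inside the untreated range. Cxcl12 was at 67.3 ± 6.56 against 44 ± 4.13 CPM, a call lost with DESeq2 (adjusted p = 0.0755), and the call of Pdgfa (log2FC 0.31) was lost in 5 of 8 refits without 1 well.

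None of 43 interferon signaling and response genes and none of 20 antigen presentation genes was called by edgeR, with 3 and 1 at an unadjusted p under 0.05 and none in any of 18 alternative settings. B2m, the light chain of MHC class I, was at 2643 ± 94.1 CPM with Activin-A and 2691 ± 192 CPM untreated, and Jak1, a kinase of interferon receptors, at 106 ± 10.7 and 108 ± 14.2 CPM (SD, n = 4). Tmem173, which encodes STING, was at 64.1 to 87 CPM with Activin-A and 82.6 to 101.1 CPM untreated, with a log2FC of -0.31 ± 0.12 that did not pass the test (edgeR adjusted p = 0.198). Among 7 immune checkpoint ligands 1 was lower. This was Lgals3, galectin-3, at 1053, 1044, 977 and 1038 CPM with Activin-A and at 1408, 1279, 1456 and 1610 CPM untreated (log2FC -0.48 ± 0.05, edgeR adjusted p = 1.31e-11).

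In the melanocyte lineage and neural crest list 2 of 13 members were lower and none higher, and both encode neurofilament chains. Nefl, the light chain, was at 306, 371, 360 and 333 CPM with Activin-A and at 672, 703, 647 and 677 CPM untreated, and fell by 0.98 on the log2 scale (SE 0.0635, edgeR adjusted p = 1.3e-24). Nefm, the medium chain, was at 31.5 ± 3.38 against 52.7 ± 14.1 CPM (SD, n = 4), a call lost with DESeq2 (adjusted p = 0.0567). The pigment genes Pmel and Tyrp1 had log2FC of 0.05 and 0.18 and were not called. Of 15 regulators of mesenchymal transition Sox4 was higher, at 125 to 154 CPM with Activin-A against 82.6 to 98.8 CPM untreated.

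The remaining lists had few members called, beside 1.25% higher and 1.16% lower over all tested genes. Among 32 antioxidant and detoxifying enzymes 4 were lower and none higher: Prdx1, a peroxiredoxin, by -0.19 on the log2 scale, Nqo1, a quinone reductase, by -0.42, the metallothionein Mt1 by -0.27 and the glutathione transferase Gstm1 by -0.34. The call of Prdx1 was lost without Activin-A well 4 (edgeR adjusted p = 0.0577), and those of Nqo1, Mt1 and Gstm1 in 4, 4 and 5 of 8 refits without 1 well. Nqo1, Mt1 and Gstm1 were not called with DESeq2. Of 31 hypoxia and glycolysis genes Ldha and Aldoa, enzymes of glycolysis, were lower by -0.18 and -0.16, and of 25 sterol genes the cholesterol exporter Abca1 and the synthetic enzyme Dhcr7 were lower by -0.69 and -0.31. These 4 calls were lost in 2, 5, 4 and 6 of the 8 refits without 1 well, in that order. Those of Abca1 and Dhcr7 were also lost with DESeq2. Cth, the enzyme that makes cysteine from cystathionine, was higher at 67.5, 72.8, 73.4 and 74.5 CPM with Activin-A against 37.4, 42.2, 41.9 and 48.2 CPM untreated (edgeR adjusted p = 9.34e-05). Among 19 MAPK feedback genes the phosphatase Dusp1 was higher by 0.74 and the inhibitor Spred1 lower by -0.34, and among 20 immediate-early genes Klf4 was higher by 0.36 and Fosl1 lower by -0.27. The last 2 calls were lost in 2 and 4 of 8 refits without 1 well, and both were lost with DESeq2. No gene was called by edgeR among 27 p53 targets, 56 genes of the cell cycle or 78 cytosolic ribosomal proteins, where 4, 6 and 2 had an unadjusted p under 0.05 and at most 1, 1 and 0 were called in any alternative setting, DESeq2 included. Of 78 subunits of oxidative phosphorylation mt-Co1 was called, but its untreated wells ran from 194 to 1146 CPM and its Activin-A wells from 717 to 1152 CPM, and the call was lost without untreated well 3 (edgeR adjusted p = 0.0806), with all 32 wells in the fit (0.14) and with DESeq2 (0.999). The share of mitochondrial transcripts, given above, was also higher in Activin-A wells, and its part in this value was not tested.

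**Figure D3:**
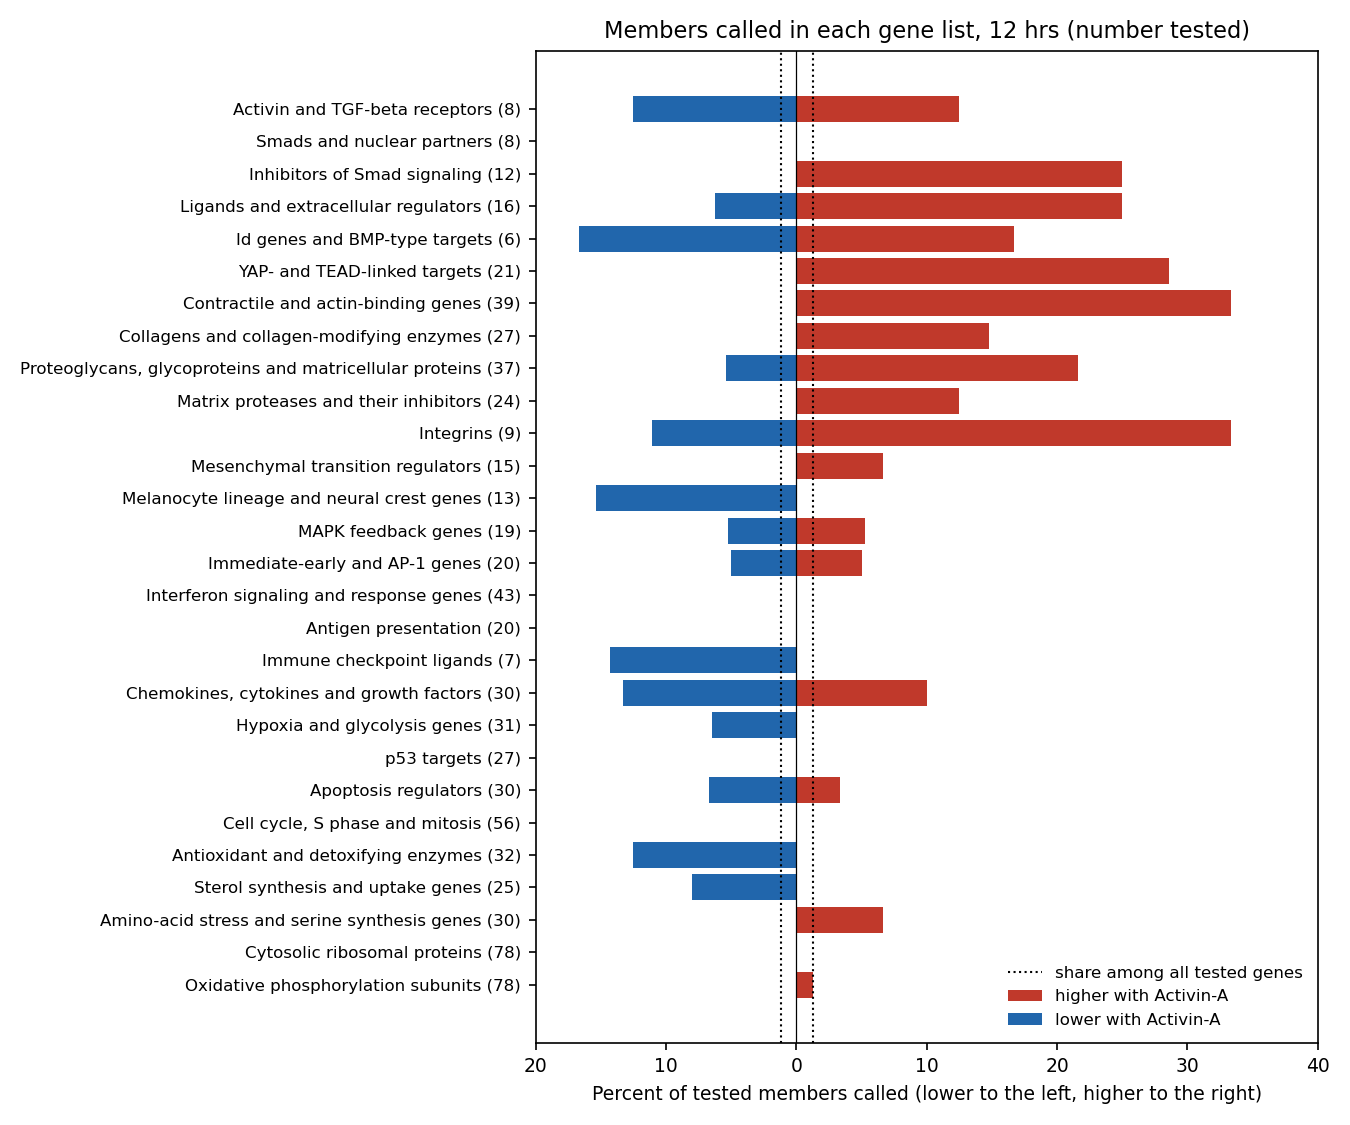
For each of the 28 gene lists the bars give the percent of tested members called higher (red, to the right) or lower (blue, to the left) with Activin-A at 12 hrs, with the number tested in brackets, and dotted lines mark the same shares among all tested genes (1.25% and 1.16%). The contractile list reaches 13 of 39 higher with none lower, and the interferon list has none of 43 in either direction.

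Outside the lists, the highest log2FC included Prss23, a secreted serine protease, at 65.1 ± 11.7 CPM with Activin-A and 21.3 ± 2.79 CPM untreated, and Dact3, a regulator of Wnt signaling, at 20.5 ± 2 against 8.76 ± 1.34 CPM (SD, n = 4), of which Dact3 was not called with DESeq2 (adjusted p = 0.0538). The incretin receptor gene Glp1r, the desmosomal plaque gene Pkp1 and Zfyve26 were higher by 1.24, 1.22 and 1.25, from fewer than 12 CPM in each untreated well. The calls of Glp1r and Pkp1 were each lost in 3 of 8 refits without 1 well and that of Zfyve26 without Activin-A well 2 (edgeR adjusted p = 0.0545). Neither Glp1r nor Pkp1 was called with DESeq2. Among lower genes Adh7, an alcohol dehydrogenase that oxidises retinol, was at 119, 125, 145 and 119 CPM with Activin-A and at 216, 206, 232 and 223 CPM untreated, without overlap (log2FC -0.78 ± 0.09, edgeR adjusted p = 2.73e-11). Anxa1, a phospholipid-binding protein that limits inflammation, was at 2044 to 2168 CPM with Activin-A against 2568 to 2878 CPM untreated. Camk1d, a calmodulin-dependent kinase, was at 14.9 to 24.1 CPM against 31.9 to 52.9 CPM, and Npnt, the matrix protein nephronectin, at 13.4 to 20.9 CPM against 24.7 to 35.2 CPM, though Npnt was not called with DESeq2 (adjusted p = 0.0946). Arnt2, a partner of bHLH-PAS transcription factors, Rgcc, a cell-cycle regulator, Lrrc10b and Zfp945 had log2FC of -1.34, -1.24, -1.13 and -0.97 at under 25 CPM in every well, and their calls were lost in 2, 3, 5 and 6 of 8 refits without 1 well. None of these 4 was called with DESeq2.

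The same contrast could be drawn in 8 other wells at 12 hrs, those with IFN-γ and those with IFN-γ and Activin-A, which share no well with the groups compared above but were in the fit that called the DEGs. With only the 8 wells compared in that fit 216 genes were called, 212 of them shared. There 92 of 8971 genes (1.03%) were called, 0.457% higher and 0.568% lower. Of the 216 DEGs 193 had the same sign (89.4%, against 56.0% of all tested genes), 43 were called in the same direction and none in the opposite direction. The median log2FC of the higher DEGs was 0.20 with IFN-γ and 0.55 without, and of the lower DEGs -0.18 and -0.41. The DEGs were chosen on the values without IFN-γ, and these medians are no test of a difference. Acta2 had a log2FC of 0.91 ± 0.06 with IFN-γ, Thbs1 of 0.78, Il33 of -0.87 and Nefl of -0.60, and all 4 were called there. In a test of the difference between the effects without and with IFN-γ, 1 of 8971 genes passed (0.0111%; 612 had an unadjusted p under 0.05). This was Cth, at 60.1 ± 5.54 CPM with IFN-γ and 50.8 ± 10.4 CPM with both (SD, n = 4), with a difference in log2FC of 1.02 ± 0.21 (SE; edgeR adjusted p = 0.0359). Cth was not called in 7 of the 16 refits without 1 well (edgeR adjusted p up to 0.114) or with DESeq2 (adjusted p = 0.676). In those 16 refits the number of such genes ranged from 0 to 6, and with DESeq2 it was 0.

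At 4 hrs the comparison of Activin-A with untreated wells, again from 8 other wells, called 150 of 9137 genes (1.64%), 1.05% higher and 0.591% lower. Of the 214 DEGs tested at both times 204 had the same sign at 4 hrs (95.3%, against 57.3% of all tested genes), 78 were called in the same direction and none in the opposite direction. Pmepa1 had a log2FC of 2.55 at 4 hrs and 1.87 at 12 hrs, Thbs1 of 1.11 and 1.07, and Smad7 was called at 4 hrs with 0.86 and not at 12 hrs with 0.61. Whether the effect differed between the times was tested for each gene, and 2 of 9332 genes passed (0.0214%; 569 had an unadjusted p under 0.05). Acta2 was at 446 ± 31.7 CPM with Activin-A and 394 ± 23 CPM untreated at 4 hrs, and its log2FC was 0.50 ± 0.09 larger at 12 hrs (edgeR adjusted p = 0.00751). Bgn was at 807 ± 110.4 CPM with Activin-A and 698 ± 28.7 CPM untreated at 4 hrs (SD, n = 4), and its log2FC was 0.49 ± 0.10 larger at 12 hrs (edgeR adjusted p = 0.0107). Bgn lost this call in 5 of 16 refits without 1 well and with DESeq2 (adjusted p = 0.0501), and Acta2 in 2 of 16. In those refits 0 to 3 genes passed, with none left without untreated well 2 or Activin-A well 3 of 4 hrs. The contractile list had 6 of its members called higher at 4 hrs and 7 in the wells with IFN-γ, against 13 of 39 in the main comparison, and whether these counts differ was not tested.

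**Figure D4:**
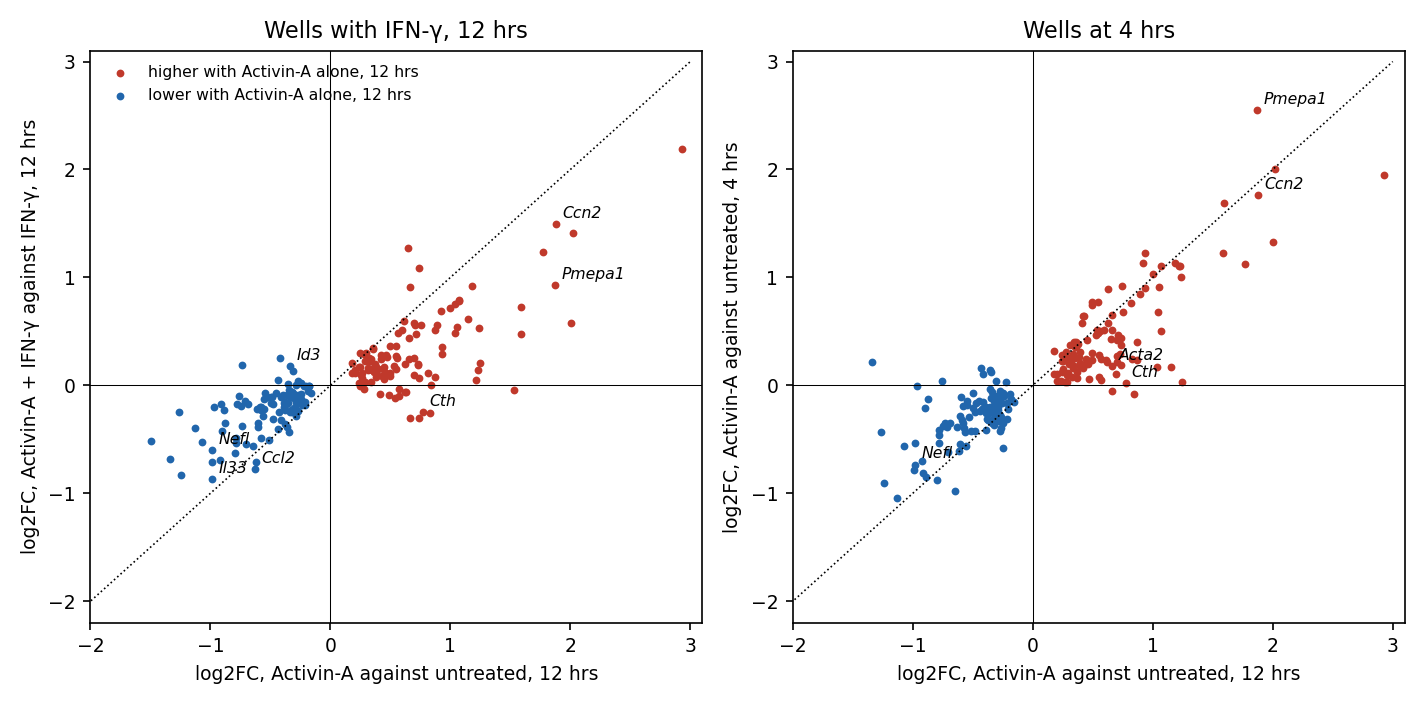
Each point is 1 of the DEGs of Activin-A alone at 12 hrs (red higher, blue lower), with its log2FC in that comparison on the x axis and in wells of other groups on the y axis (left, Activin-A with IFN-γ against IFN-γ at 12 hrs; right, Activin-A against untreated at 4 hrs), and the dotted line marks equal values. In the left panel 193 of 216 points and in the right panel 204 of 214 lie on the same side of 0 on both axes, and Cth lies below 0 in the left panel.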

How the data were processed

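Per the labels, total RNA of YUMM3.3 wells was prepared with the MERCURIUS BRB-seq kit, and the submitters' processing notes name STAR 2.7.10b, featureCounts, DESeq2 1.36.0 and build GRCm39. The annotation and whether reads were collapsed by molecular identifier are not given in the sources used here. The authors deposited raw counts per gene for 32 wells in 8 groups of 4, and 12437 of 12451 identifiers were matched to symbols. Genes called by 3′ counts may share reads with near-identical copies.

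Counts were fitted with edgeR 4.0.16 in R 4.3.3 (filterByExpr, TMM normalization, quasi-likelihood test, Benjamini-Hochberg adjustment) over all 16 wells of 12 hrs, with the 4 groups as the only term. The study's methods used DESeq2, run here (1.42.0) as an alternative. SE is the absolute log2FC divided by the square root of F. CPM values were scaled by TMM factors, except those of the cell type markers and of the floor of 3 counts, which were scaled to the library total alone. The 4 hrs contrast used the 16 wells of that time, and the difference between times all 32. In simulated counts with the comparison's means and depths, changes were put only into genes of over 50 counts per well on average, and lower genes were not tested for recovery. There edgeR recovered 100 of 100 genes changed by a log2FC of 1 and 84 of 100 changed by 0.5, with 6 false calls among 8969 genes, and DESeq2 recovered 99 and 75 with 0 false calls. With no gene changed both made 0 calls. Every simulated gene had the spread that the fit's trend gives to its level, with no spread of its own, and there were no repeat draws. These false calls therefore do not carry over to genes that vary more than the trend.

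Members and gene lists were chosen with earlier results of these data known. Named genes had at least 10 counts on average and no overlap between groups (the 10 highest and 10 lowest log2FC, the 5 smallest p in each direction), or were called members of a list, up to 4 abundant uncalled members of it, or receptors and Smads. Tnnt2, Tead2, Msn, Smad7, Skil, Inhbb and the genes of the closing observations were chosen after their values were seen. Other settings were RLE normalization, other filters, samples and thresholds, DESeq2, the replicate number as a block and each well left out. Promoters came from RefSeq (GRCm38.p6) by the first start listed for each gene, and 163 of the 216 DEGs were matched to one. Some genes that this rule would name are not reported here.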

Additional observations from a re-analysis of the deposited data

Results flagged for a closer look

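In 5 of 252 groups of 4 wells checked (126 genes, 2 groups each) a well stood apart from the other 3 by more than Dixon's 95% critical value, and chance flags about 1 in 20 groups. Pdlim5 was at 138.6 CPM in Activin-A well 3, next to 119.3 CPM in the nearest well. Sox4 was at 154.1 CPM in Activin-A well 4, next to 126.3 CPM, and stayed called in each of the 8 refits without 1 well. Qdpr was at 206.8 CPM in Activin-A well 3, below 243.5 CPM in the nearest well. Runx1 was at 91.05 CPM in untreated well 1, above 74.91 CPM. Id1, which was not called, was at 74.7 CPM in Activin-A well 1, above 50.51 CPM.

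The effect of Activin-A differed between conditions for 3 genes by edgeR's test of the difference. For Cth the log2FC was higher by 1.019 without IFN-γ than with it, and for Bgn and Acta2 it was higher by 0.4902 and 0.4951 at 12 hrs than at 4 hrs. These calls were lost in 7, 5 and 2 of 16 refits without 1 well for Cth, Bgn and Acta2, and with DESeq2 for Cth and Bgn.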

How the results depend on the processing

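All 216 DEGs kept the sign of their log2FC under each of 16 other fits in which they were tested, and 96 (55 higher, 41 lower) were called in every one of them. The count of DEGs was 124 with DESeq2 (122 shared) and 136 with its independent filtering set to 0.05, a setting chosen after the data were seen (73 higher, 63 lower). It was 103 when a log2FC of at least 0.5 in size was also asked for, and between 170 and 201 in the 8 refits without 1 well. The replicate number does not pair the wells (deviations of same-numbered wells correlated at 0.00554 to 0.031), and with the replicate block 218 genes were called, 214 of them shared. With a block the number of genes whose effect differed from that at 4 hrs remained 2 and from that with IFN-γ 1. The number whose effect differed from that at 4 hrs was 1 with DESeq2, 1 with DESeq2's filtering set to 0.05, 1 at an adjusted p under 0.01 and 0 to 3 in refits without 1 well. The number whose effect differed from that with IFN-γ was 0 with DESeq2 at either filtering and at an adjusted p under 0.01, 8 with no filter on low counts, and 0 to 6 in refits without 1 well. The causes of these shifts were not tested. Of 104 called genes named in the text 39 lost the call in at least 1 of the refits without 1 well, 40 lost it with DESeq2 and 21 of 92 with its filtering set to 0.05, and none changed sign. Among the losses with DESeq2 were also Tgif1, Ltbp4, Myl12a, Col4a1, Loxl3, Tgfbi, Pdgfa, S100a1 and S100a6. Among uncalled genes the sign turned in some refits without 1 well, whose log2FC ranged from -0.1605 to 0.03298 for Acvr1b, -0.2258 to 0.01052 for Acvr1, -0.1932 to 0.02151 for Tgfbr2, -0.126 to 0.0132 for Bmpr1a, -0.07445 to 0.08424 for Smad4, -0.09461 to 0.05096 for Jak1, -0.06289 to 0.01703 for B2m, -0.009704 to 0.1143 for Pmel, -0.0009452 to 0.1412 for Fn1 and -0.03528 to 0.1028 for Eng. Members called in a list ranged over 18 settings from 0 to 2 for the receptors, 1 to 4 for the Smad inhibitors, 3 to 5 for the ligands, 5 to 7 for the TEAD-linked targets, 4 to 13 for the contractile genes, 1 to 4 for the collagens, 6 to 12 for the proteoglycans and glycoproteins, 1 to 4 for the matrix proteases, 3 to 4 for the integrins, 2 to 8 for the chemokines and cytokines, 1 to 4 for the melanocyte list and 0 to 4 for the antioxidant enzymes. Among genes of under 20 counts per well no log2FC smaller than 0.877 in size was called.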

Other observations

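Of the 216 DEGs 139 were in none of the lists, and some of them fell into families that were picked after their values were seen and so carry no test as families. Of 7 S100a genes tested, which encode small calcium-binding proteins, 4 were lower and none higher, with a median log2FC of -0.21. S100a10 was at 949, 932, 936 and 948 CPM with Activin-A and at 1167, 1134, 1144 and 1251 CPM untreated, with no overlap, and S100a13 was at 69.5 ± 7.32 against 115 ± 10.9 CPM (SD, n = 4). The calls of S100a1 and S100a6 (log2FC -0.60 and -0.18) were each lost in 5 of the 8 refits without 1 well. Of 8 annexins, which bind membranes with calcium and partner S100 proteins, 2 were higher (Anxa3 by 0.47 and Anxa5 by 0.20) and 2 were lower (Anxa1 by -0.38 and Anxa7 by -0.27). The call of Anxa5 was lost without Activin-A well 4 (edgeR adjusted p = 0.0545).

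Gch1, the rate-limiting enzyme in the synthesis of the cofactor tetrahydrobiopterin, was at 44.3 ± 7.01 CPM with Activin-A and 82.4 ± 9.39 CPM untreated (edgeR adjusted p = 1.04e-06), and Qdpr, which recycles that cofactor, was at 237 ± 20.3 against 312 ± 11.6 CPM (edgeR adjusted p = 0.000217; n = 4). Gch1 was also called lower at 4 hrs, with a log2FC of -0.85. In the wells with IFN-γ its log2FC for Activin-A was -0.23 and it was not called (edgeR adjusted p = 0.51). The difference between its effects without and with IFN-γ did not pass the test (edgeR adjusted p = 0.209). Fth1, the ferritin heavy chain that stores iron, was at 2766 to 3262 CPM with Activin-A and 3458 to 3587 CPM untreated, and Nfe2l2, the transcription factor of antioxidant genes, was lower by -0.33, a call lost without untreated well 3 or Activin-A well 1 (edgeR adjusted p up to 0.0639). The growth factor binding proteins Igfbp4 and Igfbp6 moved apart, at 961 ± 48.6 against 801 ± 42.6 CPM and at 193 ± 13.8 against 286 ± 13.2 CPM (SD, n = 4). Cavin3, a coat protein of caveolae, was lower by -0.42. Ptgs2, the inducible cyclooxygenase, was higher at 161 ± 13.6 against 119 ± 8.06 CPM, and the receptor Fgfr1 and the transcription factor Runx1 were higher by 0.43 and 0.47 on the log2 scale, calls lost with DESeq2 (adjusted p = 0.0515 and 0.0599).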
